A study of Mus musculus with 6 samples.

Results

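CatSper is the calcium channel of the sperm tail. Its pore is built from the 4 subunits CATSPER1 to CATSPER4, each from its own gene, and auxiliary subunits such as beta, gamma and delta sit around that pore. The channel lets calcium into the flagellum, which the sperm needs for the vigorous beating called hyperactivation, and in mice the genes are known for expression in the testis, in developing sperm cells. Liver is not a tissue in which the channel is known to work.

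The 8 genes described here were chosen by symbol, as Catsper1, Catsper2, Catsper3, Catsper4, Catsperb, Catsperd, Catsperg1 and Catsperg2, from the 37991 genes of the count tables, and all 8 matched an Ensembl identifier. The set was picked because Catsperg1 and Catsperg2 differ between KAP1-deleted and control tissue. Values of the set against control liver are therefore given as a description, and calls made there are not read as a test. KAP1, encoded by Trim28, silences chromatin at sites where zinc finger proteins bind DNA and recruit it, together with histone-modifying enzymes. The control livers came from TgAlbCre mice, which carry the Cre transgene alone. The KAP1-deleted livers (deleted livers below) came from TgAlbCreKap1lox mice, which add a Kap1 gene open to inactivation by Cre. The tumours were primary tumours from the livers of those same mice. The albumin promoter drives Cre in hepatocytes, so other liver cells can keep KAP1. All mice were fed a high-fat diet (HFD) for 27 weeks and were killed at 35 weeks of age. Each group had 2 libraries, and by the mouse codes tumour 1 came from the mouse of deleted liver 1, and tumour 2 from that of deleted liver 2.

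Genes held 39723997 to 62178752 counts per library, and 1 count was worth 0.0138 to 0.0289 CPM, the depth-scaled count used throughout, with TMM scaling between libraries. Trim28 was at 32.5 and 35.9 CPM in controls, 5.06 and 6.02 CPM in deleted livers, and 5.22 and 4.59 CPM in tumours. By edgeR's quasi-likelihood test with Benjamini-Hochberg adjustment it fell by 2.63 ± 0.19 (log2, SE) in KAP1-deleted liver, adjusted p = 0.00393. The summed level of 10 hepatocyte markers, all detected, was 111214 to 117981 CPM in the 4 livers and 56033 and 71386 CPM in the tumours. Alb, the albumin gene whose promoter drives Cre, was at 18162 and 34887 CPM in tumours and at 53805 to 74525 CPM in the livers. In these bulk samples, fewer cells of a type and less RNA per cell cannot be told apart.

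Catsperg1 and Catsperg2 are near-identical copies of the gene for the gamma subunit, on the minus strand of chromosome 7 and 483 kb apart in GRCm38. Their sequences are shown because the copies carry most of the difference in the summed CatSper level between KAP1-deleted and control liver. They are also shown because how alike the copies are limits which copy a read can be given to. Over 3435 aligned coding bases of their GENCODE M21 transcripts, 123 differed, an identity of 96.4%. The 120 coding bases where they differed most, bases 1642 to 1761 of the coding sequence of each, held 19 mismatches, which are in capitals.
Catsperg1: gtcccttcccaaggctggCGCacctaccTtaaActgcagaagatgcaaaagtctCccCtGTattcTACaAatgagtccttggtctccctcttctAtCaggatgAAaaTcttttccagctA
Catsperg2: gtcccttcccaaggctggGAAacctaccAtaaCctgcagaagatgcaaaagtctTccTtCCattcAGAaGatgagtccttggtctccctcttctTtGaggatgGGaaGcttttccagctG
In other stretches the copies read the same. The longest stretch with no mismatch ran for 341 bases, and coding bases 124 to 243, within 1 such stretch, read the same in both.
Catsperg1 and Catsperg2: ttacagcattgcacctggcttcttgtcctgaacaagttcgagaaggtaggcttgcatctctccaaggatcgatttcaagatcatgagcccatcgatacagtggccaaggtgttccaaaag

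Of the 31-base words of the Catsperg1 transcripts, 55.3% were also found in Catsperg2, and 44.6% were found in no other gene. The same shares were 56.2% and 43.7% for Catsperg2. Words of 100 bases were shared for 23.7% of Catsperg1 and 24.8% of Catsperg2, so longer reads separate the copies better. The labels do not give the read length, and counts of either copy are uncertain where a read fits both. Reads set aside at counting as non-unique alignments were 0 in every library. How such reads were handled before counting was not given. Of the other 6 genes, 85.4% to 100% of the 31-base words were found in no other gene.

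Catsperg2 (ENSMUSG00000049123) had 2 and 0 counts in controls 1 and 2, 511 and 430 in the deleted livers of replicates 1 and 2, and 359 and 192 in tumours 1 and 2. In CPM these were 0.0577 and 0, then 11.6 and 9.11, then 4.96 and 3.66. The control libraries were at or near 0, both deleted livers were highest, both tumours lay between, and no groups overlapped. Mean levels were 0.0289 ± 0.0408, 10.4 ± 1.76 and 4.31 ± 0.920 CPM (SD, n = 2 each). The ratio of summed counts, scaled for library size, was 482 for KAP1-deleted over control liver (exact 95% interval 133 to 3989) and 206 for tumour over control liver (56.8 to 1708). These intervals, like the other intervals of count ratios below, pool the libraries of each group. They cover counting error only and leave out the spread between mice. Reads copied by PCR are not independent molecules, so even the counting error may be understated.

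Catsperg1 (ENSMUSG00000049676) was detected in every library, with 17 and 14 counts in controls, 130 and 109 in deleted livers, and 104 and 60 in tumours. The levels were 0.491 and 0.238 CPM, 2.95 and 2.31 CPM, and 1.44 and 1.14 CPM in the same order, and the groups again did not overlap. Group means were 0.364 ± 0.179, 2.63 ± 0.455 and 1.29 ± 0.208 CPM (SD, n = 2 each). The fitted difference was 2.90 ± 0.41 (log2, SE) between KAP1-deleted and control liver, 7.48-fold higher, and 1.88 ± 0.41 between tumour and control liver. Per kb of exon, the mean levels in KAP1-deleted liver were 1.47 ± 0.251 CPM for Catsperg2 and 0.373 ± 0.0645 CPM for Catsperg1, so the copy with fewer control counts reached the higher level. Both comparisons with control liver share the control libraries.

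**Figure D1:**
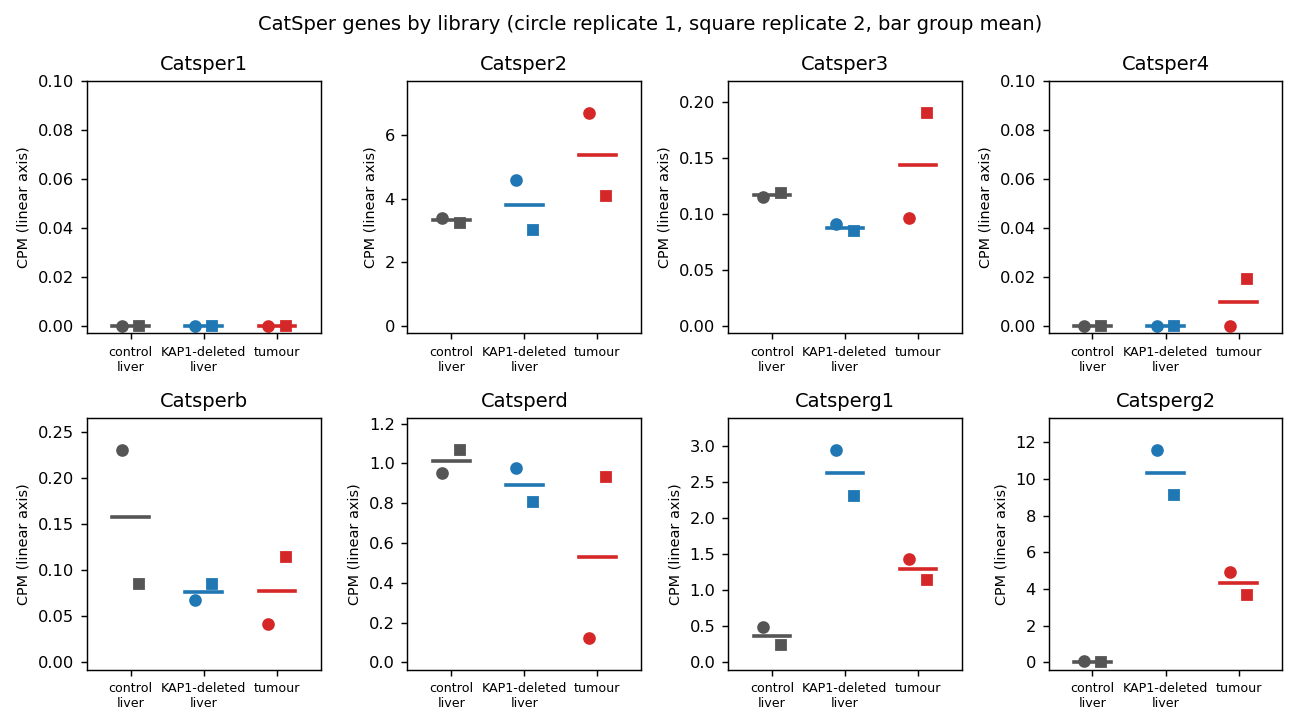
Level of each of the 8 CatSper genes in the 6 libraries, in CPM on linear axes that differ between panels; circles are replicate 1, squares replicate 2 and bars group means. Catsperg1 and Catsperg2 are lowest in both control livers and highest in both deleted livers, while Catsper1 is at 0 in every library.

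The share of the pair's reads that went to Catsperg1 also differed between the groups. It was 89.5% (exact binomial 95% interval 66.9% to 98.7%) and 100% (76.8% to 100%) in control livers 1 and 2. In deleted livers it was 20.3% (17.2% to 23.6%) and 20.2% (16.9% to 23.9%), and in tumours 22.5% (18.7% to 26.5%) and 23.8% (18.7% to 29.6%). Control libraries therefore held mainly Catsperg1 reads, and the other 4 libraries held mainly Catsperg2 reads at near-equal shares. How many of the Catsperg1 counts came from Catsperg2 transcripts was not tested. With both copies counted as 1 gene, a setting chosen after seeing the data, the levels were 0.548 and 0.238 CPM in controls, 14.6 and 11.4 CPM in deleted livers, and 6.39 and 4.80 CPM in tumours. The summed gene stood 34.8-fold higher in KAP1-deleted than in control liver and its log2 difference between tumour and control liver was 3.91 ± 0.39 (SE).

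**Figure D2:**
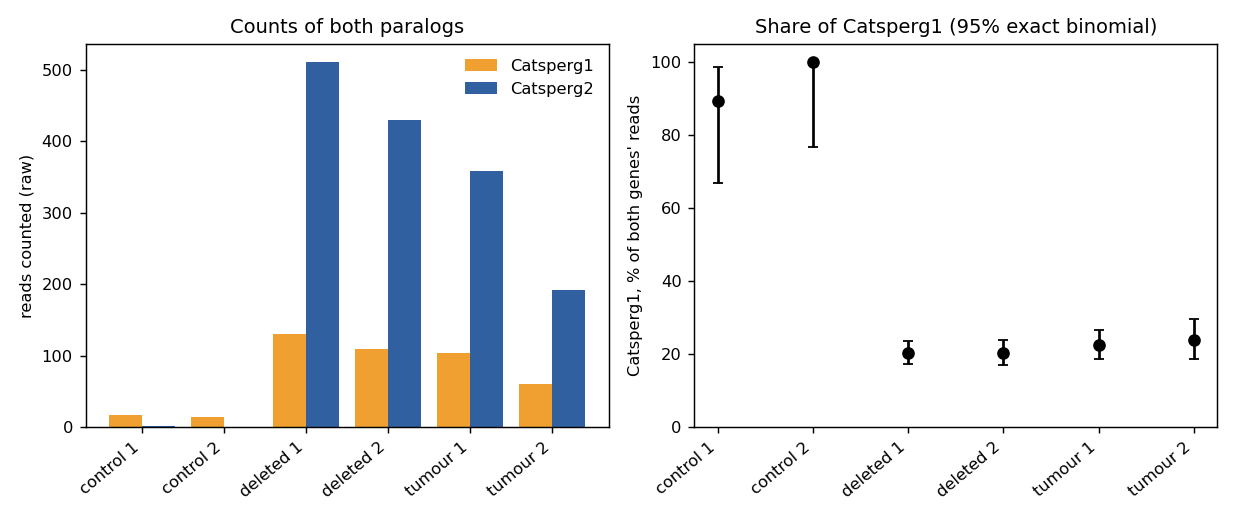
Left, raw reads counted for Catsperg1 and Catsperg2 in each library; right, the percent of both genes' reads that were given to Catsperg1, with exact binomial 95% intervals. Catsperg2 goes from 2 and 0 reads in controls to 511 and 430 in deleted livers, and the Catsperg1 share is 20.2% to 23.8% outside the controls.

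The tumours were compared with the deleted livers by a test, since the genes were not chosen on that difference itself. Levels in the deleted livers did enter the choice of genes, and they are a side of this test. The p-values for Catsperg1, Catsperg2 and their sum are therefore not free of that choice. Catsperg2 was 2.40-fold lower in tumour, a log2 difference of -1.26 ± 0.34 (SE, 95% interval -2.05 to -0.477) that missed the threshold of 0.05 in edgeR's quasi-likelihood test, adjusted p = 0.0515. With the mouse as a block the difference was -1.27 and edgeR's adjusted p was 0.00137, although that fit leaves 1 residual degree of freedom. Without either control library the call was made (adjusted p = 0.0115 and 0.0127 in edgeR), and without any 1 of the KAP1-deleted or tumour libraries it was not (adjusted p = 0.107 to 0.220). Over the 14 alternatives the adjusted p ran from 1.2e-04 to 0.220, with 7 calls. Both tumours were below both deleted livers.

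Catsperg1 was also lower in tumour than in KAP1-deleted liver in both mice, by a log2 difference of -1.02 ± 0.36 (SE, 95% interval -1.86 to -0.19), adjusted p = 0.108 in edgeR. The mouse block gave -1.03 with edgeR's adjusted p = 0.0178. As 1 gene, the pair was 2.32-fold lower in tumour (log2 difference -1.21 ± 0.31), and edgeR's adjusted p was 0.0438. The summed hepatocyte markers were also lower in both tumours than in any liver, as given above, and their part in this difference was not tested.

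The pore subunit genes were at or near 0 or showed no such pattern. Catsper1 (ENSMUSG00000038498, chromosome 19) had 0 counts in all 6 libraries, which allows up to 0.0321 CPM in controls, 0.0329 CPM in deleted livers and 0.0240 CPM in tumours (3 counts over each group). Catsper4 (ENSMUSG00000048003, chromosome 4) had 1 count, in tumour 2, and 0 in the other 5 libraries. Catsper3 (ENSMUSG00000021499, chromosome 13) had 4 and 7 counts in controls, 4 and 4 in deleted livers, and 7 and 10 in tumours. Its ratio of scaled counts was 0.746 for KAP1-deleted over control liver (exact 95% interval 0.260 to 2.04) and 1.16 for tumour over control liver (0.511 to 2.73). These low counts did not pass the filter of the fit, and at this depth a change of a few counts was not detectable.

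Catsper2 (ENSMUSG00000033486, chromosome 2) was the pore gene with most reads, at 118 and 191 counts in controls, 203 and 142 in deleted livers, and 486 and 214 in tumours. In CPM it was at 3.41 and 3.24, then 4.61 and 3.01, then 6.71 and 4.08. Deleted livers thus overlapped both other groups, while both tumours lay above both controls. The ratio of scaled counts was 1.14 for KAP1-deleted over control liver (exact 95% interval 0.979 to 1.34). For tumour over control liver it was 1.70 (1.48 to 1.95). The fitted differences from control liver were 0.20 ± 0.32 in KAP1-deleted liver, or -0.14 without deleted liver 1, and 0.70 ± 0.31 in tumour (log2, SE). Tumour against KAP1-deleted liver gave 0.51 ± 0.31 (95% interval -0.217 to 1.23), adjusted p = 0.325 in edgeR. Catsper2 overlaps Pdia3, a chaperone gene of the endoplasmic reticulum read from the opposite strand, which was at 176 to 299 CPM. No source used here gives the strand setting of the counting, and the part of Pdia3 reads in the Catsper2 counts was not tested.

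The genes of the beta and delta subunits lay no higher in KAP1-deleted than in control liver. Catsperd (ENSMUSG00000040828, chromosome 17), for the delta subunit, was at 0.953 and 1.07 CPM in controls, 0.977 and 0.805 CPM in deleted livers, and 0.124 and 0.933 CPM in tumours. Tumour 1, with 9 counts, stood apart from the other 5 libraries, which had 33 to 63. The log2 difference of tumour from KAP1-deleted liver was -0.79 ± 0.74 (SE, 95% interval -2.53 to 0.94), adjusted p = 0.519 in edgeR. Without tumour 2 it was -2.83 with edgeR's adjusted p = 0.0280, and without tumour 1 it turned to 0.06, so its size and direction depend on which tumour is used. Catsperb (ENSMUSG00000047014, chromosome 12), for the beta subunit, had 8 and 5 counts in controls, 3 and 4 in deleted livers, and 3 and 6 in tumours. Its ratio for KAP1-deleted over control liver was 0.552 (exact 95% interval 0.187 to 1.49).

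Over all 8 genes, levels per kb of exon were ordered in control liver as Catsper2 at 0.900 ± 0.0313 CPM, Catsperd at 0.282 ± 0.0230 CPM, Catsper3 at 0.0861 ± 0.00175 CPM, Catsperg1 at 0.0517 ± 0.0254 CPM, Catsperb at 0.0286 ± 0.0187 CPM and Catsperg2 at 0.00411 ± 0.00581 CPM, with Catsper1 and Catsper4 at 0. Catsperg1 and Catsperb lay within their spread of each other. In KAP1-deleted liver Catsperg2 was first, at 1.47 ± 0.251 CPM, beside Catsper2 at 1.03 ± 0.306 CPM, and the spread of these neighbours was of the size of their gap. Catsperg1 followed at 0.373 ± 0.0645 CPM, then Catsperd at 0.248 ± 0.0338 CPM, Catsper3 at 0.0645 CPM and Catsperb at 0.0138 CPM, again with Catsper1 and Catsper4 at 0. In tumour Catsper2 led at 1.46 ± 0.504 CPM, followed by Catsperg2 at 0.613 ± 0.131 CPM and Catsperg1 at 0.183 ± 0.0295 CPM. Catsperd at 0.147 ± 0.159 CPM lay within its spread of both Catsperg1 and Catsper3, at 0.105 ± 0.0487 CPM, and Catsperb was at 0.0141 CPM, Catsper4 at 0.00453 CPM from its 1 count and Catsper1 at 0. The order between genes is uncertain. Reads that fit both gamma copies, and the overlap of Catsper2 with Pdia3, may affect the counts. The lengths join all GENCODE M21 exons of a gene, while mm9 was the build named for the counts.

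Of the 8 genes, 4 passed the filter on low counts, and Catsperg2 passed it only through KAP1-deleted and tumour libraries. Against control liver, 2 of those 4 were called higher in KAP1-deleted liver, where 0.239% of the 17558 genes tested were called higher and 0.336% in either direction. The same 2 were called higher in tumour, where 6.15% of genes were called higher and 13.9% in either direction. Nothing is read from these counts, since the set was picked on them. As a limit, the Catsperg1 call in KAP1-deleted liver was lost in 8 of 14 alternatives: upper-quartile scaling, the CPM filter, limma-voom, the 4 libraries compared, and without control 2, deleted liver 1 or either tumour. In tumour it was lost in 3, without control 2 or either tumour. Between tumour and KAP1-deleted liver 0 of the 4 were called by edgeR, against 11.4% of all genes, with 2 at an unadjusted p under 0.05. DESeq2 called 1, limma-voom 1 and the fit with the mouse block 2.

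Promoter windows were read from RefSeq (GRCm38.p6), as the 250 bases before an annotated start, for 6 of the 8 genes. The source used had no window for Catsper1 or Catsperg2, so the promoter of Catsperg2 is not described. The dinucleotide CG was counted, which reads the same on both strands. The median over 32851 such windows was 6. Catsper2 had 35, a number reached by 2.97% of windows, and the starts of Catsperd had 25 and 11. Catsperg1 had 5 and 7 at its starts, reached by 55.6% and 46.3% of windows. Catsper3 had 2, and Catsper4 and Catsperb had 1 each, which 92.1% of windows reached. The windows of Catsperg1, with its levels above control in KAP1-deleted liver, and of Catsper4, with 1 read in all, are shown with CG in capitals to set a mid-range promoter beside a sparse one.
Catsperg1, chr7:29214034-29214283, minus strand: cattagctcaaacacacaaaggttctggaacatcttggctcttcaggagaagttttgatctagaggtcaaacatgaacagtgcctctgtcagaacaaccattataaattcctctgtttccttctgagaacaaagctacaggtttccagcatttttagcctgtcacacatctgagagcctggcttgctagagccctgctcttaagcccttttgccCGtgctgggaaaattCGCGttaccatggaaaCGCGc
Catsper4, chr4:134227384-134227633, minus strand: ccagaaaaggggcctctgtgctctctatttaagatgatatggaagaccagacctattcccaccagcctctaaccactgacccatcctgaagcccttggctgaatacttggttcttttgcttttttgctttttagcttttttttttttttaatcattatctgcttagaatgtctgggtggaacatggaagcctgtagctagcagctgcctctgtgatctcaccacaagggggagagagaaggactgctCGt
The count of CG is a property of the letters in these windows, and methylation was not measured.

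Genes around the gamma subunit pair had fitted differences with a median near 0 in KAP1-deleted liver. The 31 neighbours were the 10 genes before the pair, the 11 between its copies and the 10 after it, and 21 of them could be tested. In KAP1-deleted against control liver edgeR called 0 of the 21, with 1 at an unadjusted p under 0.05, and DESeq2 and limma-voom also called 0. Over all genes tested edgeR called 0.336%, so a count of 0 does not set the neighbours apart. Their median log2 fold change was -0.025, beside 0.0032 over all genes tested. That 1 gene was Zfp84, a zinc finger gene after Catsperg2, with a log2 fold change of 0.44 and an adjusted p of 0.911 in edgeR. In tumour against control liver edgeR called 1 of the 21 higher and 1 lower, where 13.9% of all genes were called, and their median was 0.08 beside -0.02 over all genes.

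The neighbour called higher was 4930432E11Rik, a transcribed pseudogene between the copies, which had 0 and 1 counts in controls, 0 and 1 in deleted livers, and 24 and 14 in tumours. It passed the filter only through the tumours, which stood above all 4 livers, so it is described with no p-value. The ratio of scaled counts was 28.5 for tumour over control liver (exact 95% interval 4.81 to 1153) and 27.7 for tumour over KAP1-deleted liver (4.69 to 1125). Its call against control liver was lost without either control or either tumour library. Yif1b, a gene of membrane traffic between the endoplasmic reticulum and the Golgi, was at 8.37 and 9.95 CPM in controls, 8.99 and 9.20 CPM in deleted livers, and 5.50 and 5.43 CPM in tumours. It fell by 0.75 ± 0.19 (log2, SE) in tumour against control liver, adjusted p = 0.0378 in edgeR, a call kept in 8 of 14 alternatives. The call was lost with only the 4 libraries compared, and without control 2, either KAP1-deleted liver or either tumour. Near the other 6 CatSper genes, 12 of 24 neighbours were tested and 0 were called by edgeR in KAP1-deleted liver (0.336% of all genes), with 0 at an unadjusted p under 0.05. In tumour, against control liver and against KAP1-deleted liver, edgeR called 0 higher and 1 lower of the 12, with 5 at an unadjusted p under 0.05 in each, where 13.9% and 11.4% of all genes were called. That 1 gene was Gm13131, a processed pseudogene beside Catsper4, with mean levels of 2.53 ± 0.0196 CPM in controls, 3.15 ± 0.170 CPM in deleted livers and 0.456 ± 0.137 CPM in tumours (SD, n = 2 each). It fell by 2.48 ± 0.31 (log2, SE) in tumour against control liver, adjusted p = 0.00294 in edgeR.

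**Figure D3:**
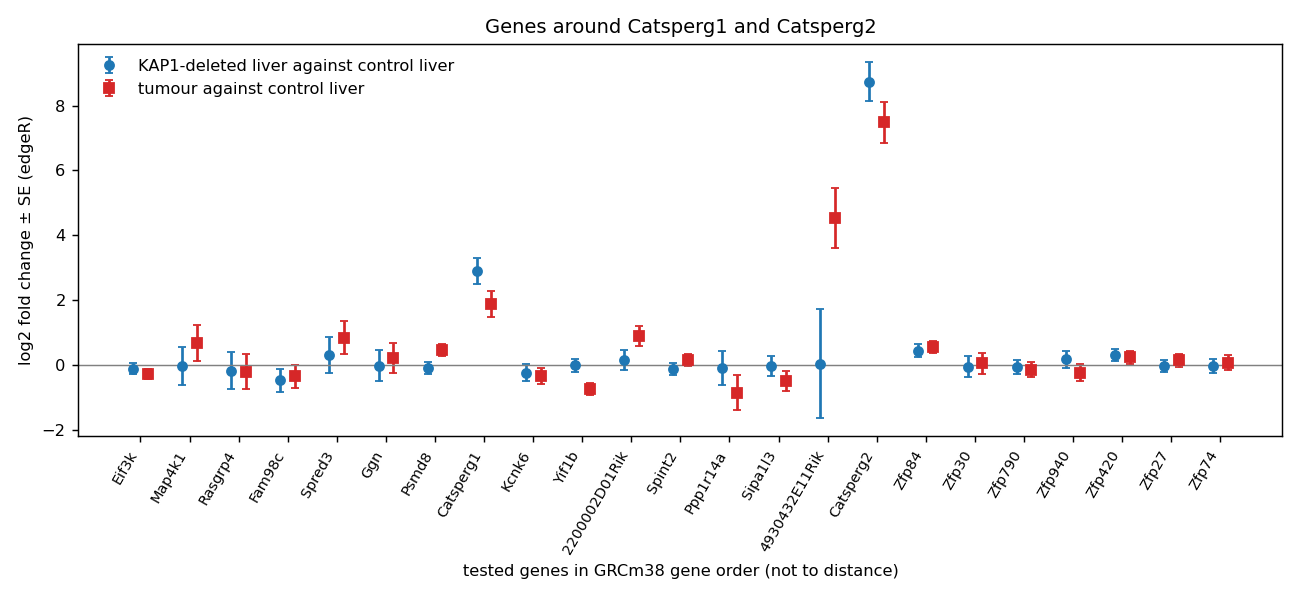
Log2 fold change (± SE, edgeR) of Catsperg1, Catsperg2 and their 21 tested neighbours in gene order along chromosome 7, for KAP1-deleted liver and for tumour against the same control livers. In KAP1-deleted liver Catsperg1 and Catsperg2 stand at 2.90 and 8.74, while their neighbours lie at -0.47 to 0.44. The 8.74 rests on 2 and 0 control counts, and was 12.2 without control 1 and 7.41 without control 2. The tumour point of 4930432E11Rik rests on 24 and 14 counts.

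Genes for other parts of the CatSper complex stayed at low counts. Of 9 listed, 7 were matched by identifier: Catspere2, Catsperz, Efcab9, C2cd6, Tmem262, Slco6c1 and Trim69. Their summed level was 0.400 to 0.808 CPM over the 6 libraries, with the lowest value in a tumour and the highest in a control liver. Catsperz and Efcab9, which encode partner proteins that help order the channel along the sperm tail, had 2 to 10 and 1 to 8 counts per library. Slco6c1, for a transporter-like partner of the channel, had 1 and 2 counts in deleted livers and 0 elsewhere. The single gene that could be tested, Trim69, had 8 and 8 counts in controls, 5 and 3 in deleted livers, and 14 and 9 in tumours, and was called in none of the 3 comparisons by edgeR, DESeq2 or limma-voom.

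Among 9 other genes of ion transport and calcium control in sperm, 4 were tested and 0 were called in KAP1-deleted liver by edgeR, DESeq2 or limma-voom, with 0 at an unadjusted p under 0.05. At 0.336% called over all genes, 0 of 4 says nothing particular to the list. Their median log2 fold change was 0.14, beside 0.0032 over all genes. Abhd2, a lipid hydrolase that in sperm responds to progesterone upstream of CatSper and is also expressed in liver, was at 231 and 226 CPM in controls, 206 and 170 CPM in deleted livers, and 113 and 121 CPM in tumours. It fell by 0.97 ± 0.19 (log2, SE) in tumour against control liver, adjusted p = 0.0155 in edgeR, a call lost without either tumour (adjusted p = 0.0909 and 0.0658 in edgeR). The other 3, Hvcn1 among them, were called in no comparison by edgeR, so 1 of 4 was called in tumour against control liver, where 13.9% of all genes were.

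Markers of spermatids, the cells that become sperm, had near-equal summed levels in the 6 libraries. The summed level of 25 listed genes was 9.96 to 10.6 CPM, most of it from Odf2, a gene also used in centrosomes, at 7.30 to 9.20 CPM. The protamine and transition protein genes Prm1, Prm2, Tnp1 and Tnp2, which pack sperm DNA, had 0 or 1 count in every library, and 6 of the 25 genes had 0 counts throughout. Of the 25, 3 were tested, and edgeR, DESeq2 and limma-voom called 0 of them in each comparison, with 0 at an unadjusted p under 0.05 in edgeR. Of all genes, 0.336% were called in KAP1-deleted against control liver, 11.4% in tumour against KAP1-deleted liver and 13.9% in tumour against control liver, so 3 genes with no call do not stand apart. In KAP1-deleted liver their median log2 fold change was 0.03, beside 0.0032 over all genes.

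A list of 24 germline genes known to be silenced by DNA methylation in body cells gave 0 calls in KAP1-deleted liver, of 4 tested, by edgeR, DESeq2 or limma-voom, with 0 at an unadjusted p under 0.05. With 0.336% of all genes called, this is no result about the list. The summed level was 4.11 to 4.97 CPM in the livers and 1.62 and 2.82 CPM in the tumours. Sycp3, which encodes a protein of meiotic chromosome axes, was at 1.56 and 1.34 CPM in controls, 2.27 and 1.78 CPM in deleted livers, and 0.345 and 0.552 CPM in tumours. It fell by 1.70 ± 0.36 (log2, SE) in tumour against control liver, adjusted p = 0.0206 in edgeR, and its log2 difference from KAP1-deleted liver was -2.18 ± 0.36, adjusted p = 0.0102. Both calls were lost without tumour 1 (adjusted p = 0.0954 and 0.0561). These comparisons share the tumour libraries. Brdt and Smc1b, other meiotic genes, were called in no comparison by the edgeR fit as reported, which has no mouse block. With the block, edgeR called 2 genes of the list in tumour against control liver, where it called 4153 of all 17558 genes tested. Without the block, the edgeR fit as reported called 1 of the 4 there, and 13.9% of all genes. Control livers came from other mice, so the block takes no account of spread between mice in that comparison.

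**Figure D4:**
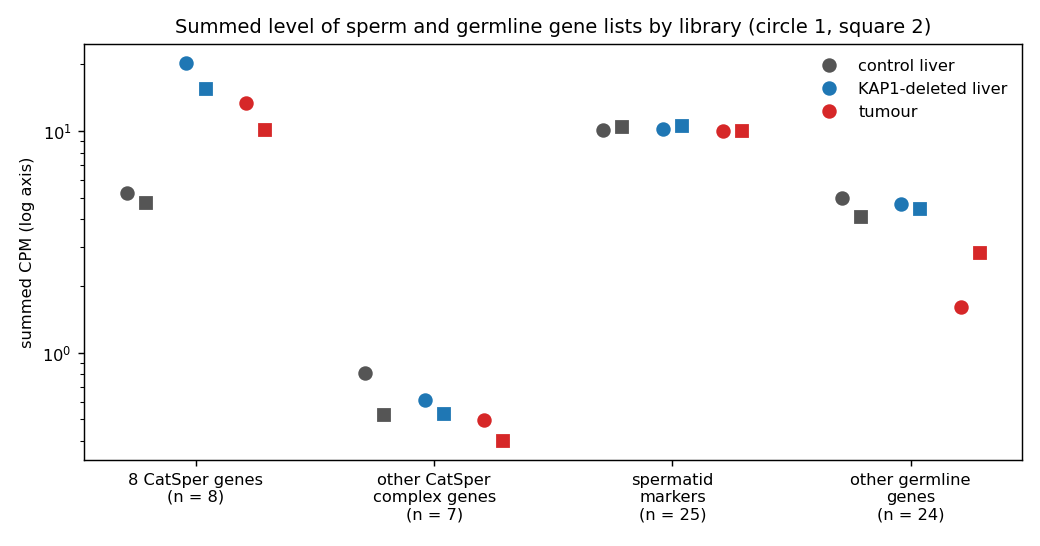
Summed CPM (log axis) of the 8 CatSper genes and of 3 other gene lists in each of the 6 libraries; circles are replicate 1 and squares replicate 2. The CatSper sum is 4.75 and 5.25 in controls and 15.4 and 20.3 in deleted livers, while spermatid markers stay at 9.96 to 10.6 in all libraries.

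Markers of the liver's cell types gave no call between KAP1-deleted and control liver. The edgeR test called 0 tested members of the hepatocyte, cholangiocyte, endothelial, stellate, macrophage and lymphocyte lists there, with 1 lymphocyte gene at an unadjusted p under 0.05, where 0.336% of all genes were called. The tumours had lower sums of 5 macrophage markers, at 190 and 217 CPM against 384 to 428 CPM in livers, and of 6 stellate cell markers, at 127 and 283 CPM against 366 to 458 CPM. The 7 lymphocyte markers summed to 32.6 and 64.6 CPM in tumours and 29.1 to 40.8 CPM in livers. The 5 cholangiocyte markers summed to 3.05 and 22.0 CPM in tumours and 15.4 to 34.4 CPM in livers, and the 5 endothelial markers to 177 and 148 CPM against 203 to 224 CPM. The part of these cell types in the lower gamma subunit levels of tumours was not tested.

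Genes whose levels followed Catsperg2 were ranked by Pearson's r of log2(CPM + 0.1) over the 6 libraries. The ranking was among 868 tested genes whose log2 CPM had an SD of at least 1. Genes with no symbol or with a Gm or Rik name were left out of it. The values are a description of 6 libraries that share 3 groups and 1 scaling. The first was Rpp40, for a subunit of the ribonucleases P and MRP, with r = 0.995. It was at 4.73 and 4.26 CPM in controls, 42.5 and 44.3 CPM in deleted livers, and 35.3 and 23.7 CPM in tumours. Next came the pseudogene Znf41-ps (r = 0.977), Cox6b2, the testis form of a cytochrome c oxidase subunit (r = 0.974), and the zinc finger genes Zfp991 (r = 0.974) and Zfp808 (r = 0.973). Cox6b2, like Catsperg2, was near 0 in controls, at 0.0289 and 0.0679 CPM, and was at 2.41 and 1.36 CPM in deleted livers and 2.04 and 1.26 CPM in tumours.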

How the data were processed

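RNA was taken from liver or liver tumour of 6 samples. Each sample is labelled as tissue, but the extraction protocol mentions cell lines; it names total RNA and a stranded TruSeq kit. The authors deposited raw counts of reads per Ensembl gene, with HTSeq 0.6.1, TopHat and the mm9 build named in the submitters' processing notes. Not given in the sources used here: the TopHat version, annotation, strand setting and read length. Rows that name no gene held 20.9% to 36.7% of reads and were left out; ambiguous reads were 1.73% to 2.87%. All libraries carry 1 batch label. Within groups the libraries differed beyond counting noise (chi-square 83.7 to 324 per degree of freedom), so none was treated as a duplicate. The p-values reflect only the spread among these libraries.

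Identifiers were matched to GENCODE M21 symbols (32919 of 37991). The test was edgeR 4.0.16 (R 4.3.3): filterByExpr by group (minimum count 10, minimum total 15), TMM, 1 mean per group over all 6 libraries, a robust quasi-likelihood fit (3 residual degrees of freedom, common biological coefficient of variation 0.23) and Benjamini-Hochberg adjustment over 17558 genes at 0.05. Fitted log2 values use a prior count of 0.125. TMM factors were 0.864 to 0.948 in livers and 1.31 and 1.22 in tumours. The fit was tested on simulated data. The genes, lists and tests were chosen with earlier results of these data known. Named were the 8 genes, Trim28 and Alb, up to 4 called genes per list and comparison or 2 of the most abundant, neighbours, and the 5 genes most like Catsperg2; part of these are described. Genes of the other lists were also named for their role or low counts after values were seen. Mouse codes pair tumour and KAP1-deleted liver; their deviations from group means correlated across genes with r = 0.183. Alternatives were DESeq2 1.42.0 and its size factors, upper-quartile scaling, no filter, CPM of at least 1 in 2 libraries, limma-voom (limma 3.58.1), only the 4 libraries compared, a mouse block, and leaving out each library.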

Additional observations from a re-analysis of the deposited data

How the results depend on the processing

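With 2 libraries per group, a common coefficient of variation of 0.23 and at most 10 counts per library for 4 of the 8 CatSper genes, small differences were not detectable. No called result changed direction under the alternatives run. Catsperd, not called between tumour and KAP1-deleted liver (-0.79), ran from -2.83 to 0.064 with a library left out, reversed without tumour 1, and values near 0 also changed sign, such as Catsper2 in KAP1-deleted against control liver (0.20, and -0.14 without KAP1-deleted liver 1). The count of genes called in KAP1-deleted against control liver, 59, was 571 with no filter on low counts, 38 with the CPM filter, 230 with DESeq2, 27 with limma-voom, 352 with the mouse (replicate) block, 20 with the 4 libraries compared, and 30 to 75 with each library left out. The block pairs tumour and KAP1-deleted liver within mice; the controls are other mice, so its counts against control liver rest on within-mouse spread with 1 residual degree of freedom and cannot separate genotype from mouse. In tumour against KAP1-deleted liver, 2007 became 3819 with no filter, 3889 with the block, and 640 to 2715 with a library left out. In tumour against control liver, 2443 became 4115, 4153 and 1103 to 2621 in the same order.

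CatSper genes called between tumour and KAP1-deleted liver, 0, were 2 with no filter, 1 with DESeq2, 1 with limma-voom, 2 with the block, 1 with the 4 libraries compared, and 0 to 1 with a library left out. The Catsperg2 log2 difference of -1.26 passed the threshold with no filter (-1.26), DESeq2 (-1.21), limma-voom (-1.25), the block (-1.27) and the 4 libraries compared (-1.22), and so did the pair summed, chosen after seeing the data (-1.21); it ran from -1.51 to -1.07 with a library left out. Sperm ion transport genes called in tumour against control liver, 1, were 0 to 1 with a library left out. Germline genes called were 1 with no filter in KAP1-deleted liver (0 as reported) and, in tumour against control liver (1 as reported), 4 with no filter, 2 with the block and 0 to 2 with a library left out. Neighbours called in tumour against control liver, 2, were 1 with the CPM filter, 1 with the 4 libraries compared, and 0 to 1 with a library left out. With the block, 3 neighbours were called there. Apart from the counts given in this section, the block changed no count of calls by more than 1.5 times. The cause of these shifts was not tested.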
